A study of Homo sapiens with 5 samples.

Results

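HOXB13 and 4 protein-coding genes beside it on chromosome 17, PRAC1, PRAC2, TTLL6 and CALCOCO2, were followed through 5 RNA-seq libraries. They were taken by name and Ensembl ID, and are 5 of the 58812 genes in the count table; all 5 passed the filter on low counts in every comparison. The cells were C4-2B, a line of metastatic castration-resistant prostate cancer, in 3 groups. Parental C4-2B gave 2 libraries, the HOXB13-K13A mutant clone C4K13A gave 2, and the mutant clone C5K13A gave 1. In K13A the lysine at position 13 of the HOXB13 protein is replaced by alanine, and the series addresses transcripts that depend on acetylation of this lysine. All cells were grown in the same C4-2B medium, and each mutant group rests on a single clone, so the mutation and the history of a clone cannot be told apart. Gene counts carry no sequence, so they do not check the K13A genotype. The labels do not state that libraries of a group are separate cultures. The p-values therefore rest on library-to-library spread, of which all could be technical.

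Total counts ran from 43190276 to 57282373 per library. Of the luminal prostate markers, 8 of 8 (among them KLK3, KLK2, FOLH1, TMPRSS2, KRT8 and KRT18) reached 1 CPM (read counts scaled to a common library total with TMM factors) in all 5 libraries, with a summed level of 4592 to 6524 CPM. All 3 basal and all 5 leukocyte markers stayed under 1 CPM in every library. Of the markers of the other cell types, 3 of 5 fibroblast, 3 of 4 endothelial and 4 of 5 intestinal genes did so too. HOXB13 and PRAC1 are also known from the distal gut. The intestinal markers CDX1 and CDH17 were at 0 in all 5 libraries, and GUCY2C had 4 reads in all. CDX2 was at 0.169 and 1.06 CPM in parental cells, 0.399 and 1.07 in C4K13A and 1.25 in C5K13A. LGALS4 was found in all 5 libraries, at 0.319 to 0.978 CPM. The 5 intestinal markers summed to 0.718 to 1.72 CPM. Mitochondrial ribosomal RNA, a sign of uneven ribosomal depletion, ran from 29.03 and 65.4 CPM in the first parental and the first C4K13A library to 353 in the second C4K13A library, 658 in C5K13A and 1723 in the second parental library.

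HOXB13 is the most posterior gene of the HOXB cluster. It encodes a homeodomain transcription factor that is kept on in adult prostate epithelium, where it binds DNA together with MEIS proteins. PRAC1 and PRAC2 encode small nuclear proteins known for expression in prostate and distal colon. TTLL6 adds glutamate chains to tubulin in cilia, and CALCOCO2 (also called NDP52) is a receptor that carries ubiquitin-tagged cargo to the autophagosome.

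In GENCODE v29 on GRCh38, PRAC1 (ENSG00000159182) spans chr17:48721719-48722522 on the minus strand and PRAC2 (ENSG00000229637) spans chr17:48723168-48724758 on the plus strand. HOXB13 (ENSG00000159184) spans chr17:48724763-48729178 on the minus strand. TTLL6 (ENSG00000170703) spans chr17:48762235-48817214 on the minus strand and CALCOCO2 (ENSG00000136436) spans chr17:48830988-48866522 on the plus strand. PRAC1 and PRAC2 point away from each other, with starts 646 bases apart. PRAC2 and HOXB13 run towards each other and end with 4 bases between their spans. HOXB13 and TTLL6 are separated by 33056 bases. TTLL6 and CALCOCO2 also point away from each other, with starts 13774 bases apart. The strand setting of the counting is not given in the sources used here, so reads that run past the end of HOXB13 or PRAC2 cannot be assigned with certainty.

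The stretches just upstream of PRAC1 and PRAC2 are printed because these neighbours share 1 intergenic interval, and PRAC1 passed the test in clone C4K13A while PRAC2 did not. Both come from RefSeq (GRCh38.p14), are cut to the part outside the annotated gene spans, and read 5′ to 3′ on the strand of the gene, ending at the base before its start. Capitals mark the CCAAT box (CCAAT on either strand) and the GC box (GGGCGG on either strand). The PRAC1 stretch is chr17:48722523-48722768 on the minus strand (246 bases) and the PRAC2 stretch is chr17:48722935-48723167 on the plus strand (233 bases).
PRAC1: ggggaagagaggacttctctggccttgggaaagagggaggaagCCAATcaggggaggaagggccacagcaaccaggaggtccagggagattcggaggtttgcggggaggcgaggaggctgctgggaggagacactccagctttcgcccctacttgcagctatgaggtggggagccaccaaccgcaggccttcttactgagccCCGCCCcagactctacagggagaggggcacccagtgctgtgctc
PRAC2: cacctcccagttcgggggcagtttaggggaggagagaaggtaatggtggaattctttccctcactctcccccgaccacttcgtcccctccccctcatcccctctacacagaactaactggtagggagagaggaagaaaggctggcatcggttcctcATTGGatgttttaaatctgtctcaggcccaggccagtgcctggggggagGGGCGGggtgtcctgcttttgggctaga

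The promoter table (windows from 250 bases before to 50 after a start) held 4 of the 5 genes, with 1 window each for PRAC1 and CALCOCO2 and 2 windows each for PRAC2 and TTLL6, at different RefSeq starts. In the printed stretches, the first base of the PRAC1 CCAAT box lies at −203 and that of its GC box at −44, counted back from the GENCODE start of the gene. In PRAC2 the CCAAT box lies at −77 and the GC box at −28. The RefSeq starts differ slightly from these, at 48722518 for PRAC1 and 48723185 for the PRAC2 window printed. Of 35116 such windows, 34.6% hold a CCAAT box and 45.0% a GC box, so both motifs are common. The letters of a HOXB13 site, CCAATAAA, occurred on neither strand of any of the 6 windows of the 4 genes, and 0.934% of all windows held them. A CpG-containing HOXB13 site, CTCGTAAA, was also absent from these windows and present in 0.137% of all windows. The forkhead core TGTTTAC occurred in the CALCOCO2 window, at −226 from its RefSeq start, and in 3.42% of all windows. The PRAC1 window held 9 CpG dinucleotides and the PRAC2 window printed in part held 10, beside a median of 14 over all windows. The other PRAC2 window, chr17:48723442-48723741 inside the gene, held 19, with a GC box and no CCAAT box.

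HOXB13 was the most abundant of the 5 genes in every library. Levels between genes were compared per length, as CPM per kilobase of merged exons. HOXB13 stood at 113 ± 22.5 CPM per kilobase (mean ± SD, n = 2) in the parental libraries, above 98.5% of the 17489 protein-coding genes detected. PRAC1 followed at 28.9 ± 8.05 CPM per kilobase (92.0th percentile), then CALCOCO2 at 11.8 ± 0.068 (80.5th), PRAC2 at 5.51 ± 1.66 (65.8th) and TTLL6 at 0.399 ± 0.072 (34.1st). On this scale no 2 neighbours in the order overlapped between the parental libraries. The place of CALCOCO2 depends on the length used: per kilobase of its longest transcript it stood at 26.7 ± 0.154, within the spread of PRAC1. In C4K13A, PRAC1 stood at 1.14 and 0.363 CPM per kilobase and overlapped TTLL6, which stood at 0.419 and 0.307.

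**Figure D1:**
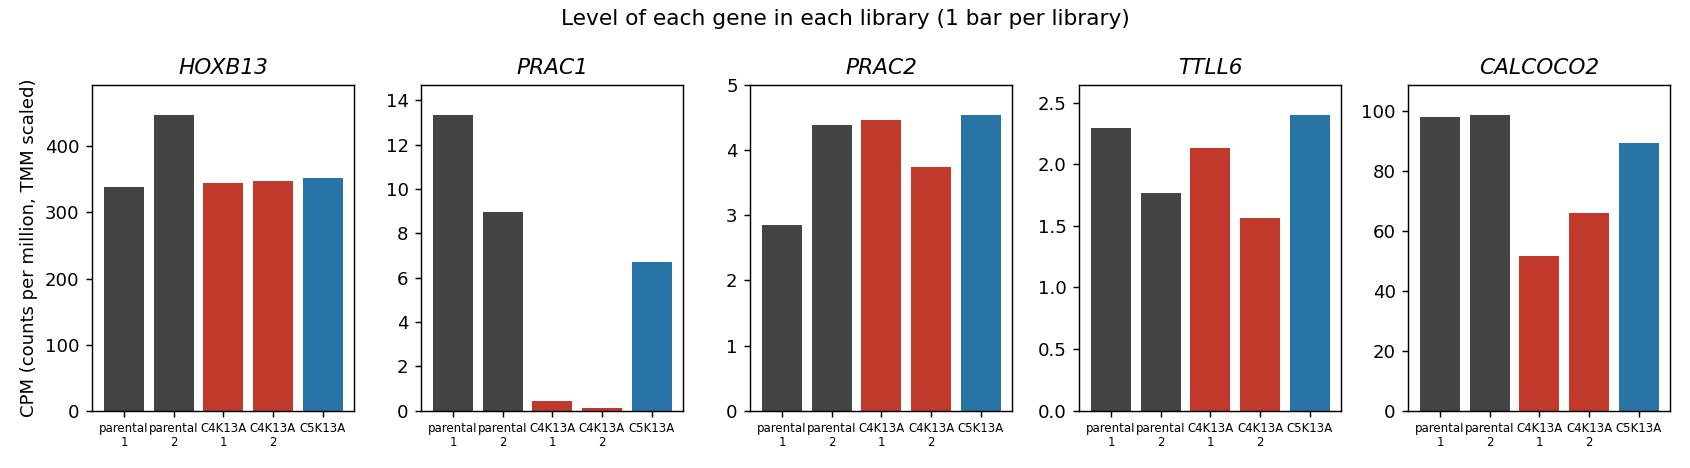
Level of each gene in each library in CPM (TMM scaled, linear axes from 0, a separate scale for each gene), 1 bar per library: 2 parental (grey), 2 C4K13A (red) and 1 C5K13A (blue). PRAC1 is at 0.439 and 0.140 CPM in C4K13A against 13.4 and 8.97 in the parental libraries; CALCOCO2 is lowest in C4K13A, and the groups overlap for PRAC2 and TTLL6.

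HOXB13 RNA was at a like level in 4 of the 5 libraries and higher in the second parental one. Its level was 338 and 448 CPM in parental cells, 344 and 348 in C4K13A and 352 in C5K13A. The 3 mutant libraries lay between the parental ones, and differed from each other by less than the parental pair did. The fitted log2 fold change was −0.19 ± 0.20 (SE) in C4K13A (adjusted p = 0.769) and −0.15 ± 0.25 in C5K13A (adjusted p = 0.921), by edgeR's quasi-likelihood test with Benjamini-Hochberg adjustment over 22743 genes. Over all 3 mutant libraries it was −0.18 ± 0.17 (adjusted p = 0.739). The negative sign rests on the second parental library: without it the log2 fold changes were 0.033 in C4K13A, 0.064 in C5K13A and 0.044 over the mutant libraries. A difference within about 2 SE of these values is not excluded.

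PRAC1 fell steeply in clone C4K13A and not to the same extent in C5K13A. It had 793 and 456 counts in parental cells, 22 and 6 in C4K13A and 284 in C5K13A. As CPM these were 13.4 and 8.97, then 0.439 and 0.140, then 6.69. Both C4K13A libraries were far below the other 3, and C5K13A lay below both parental libraries. The parental mean of 11.2 ± 3.11 CPM (SD, n = 2) was 38.6 times the C4K13A mean of 0.290 ± 0.211 (n = 2), and the lowest parental library was 20.4 times the highest C4K13A library. In bulk RNA, fewer cells with a transcript and less of it per cell cannot be told apart. The log2 fold change in C4K13A was −5.23 ± 0.51 (adjusted p = 0.00856 by edgeR), the 15th smallest p of the 22743 genes tested. Without the first C4K13A library it was −6.29, in a fit whose spread comes from the parental pair alone. As a ratio, the 2 libraries of that clone differed by more than the parental pair.

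The summed endothelial markers were also lowest in C4K13A, at 3.39 and 2.66 CPM against 5.70 and 5.61 in parental cells and 4.34 in C5K13A. Nearly all of this was VWF, with PECAM1, CDH5 and KDR under 1 CPM in all 5 libraries. The summed fibroblast markers were 7.04 and 5.42 CPM in C4K13A, 8.71 and 9.54 in parental cells and 8.34 in C5K13A. These came almost wholly from COL1A1 and PDGFRB, with LUM at 0 and COL1A2 and DCN under 1 CPM in every library. Their part in the PRAC1 result was not tested.

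In C5K13A the single library gave a log2 fold change of PRAC1 of −0.73 ± 0.50 against parental (adjusted p = 0.854 by edgeR), on the assumption that this clone varies like the other groups. Its level was 59.9% of the parental mean. The difference between the clones was tested directly: PRAC1 was higher in C5K13A than in C4K13A by 4.49 ± 0.53 on the log2 scale (adjusted p = 0.0461), 23.1-fold in mean CPM. That call was lost with upper-quartile factors (adjusted p = 0.0610), with a filter at 5 CPM (0.244) and with limma-voom (0.213), at log2 differences of 4.47, 4.48 and 4.64. With the 3 mutant libraries taken as 1 group, the log2 fold change was −2.21 ± 1.15 (adjusted p = 0.519), and the libraries of that group spanned 0.140 to 6.69 CPM. That comparison passed with no filter (adjusted p = 2.04e-10 by edgeR). There 3.12% of all genes were called, against 0.203% in the main test. It also passed when 3 groups were fitted (0.0283 by edgeR), where 0.462% of all genes were called. That fit leaves the difference between the clones out of its spread. Leaving out C5K13A gave −5.23 (0.0136 by edgeR), but that fit holds only C4K13A and parental libraries. The 3 comparisons with parental cells share the same 2 parental libraries.

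PRAC2, whose start lies closest to that of PRAC1, did not pass the test in any comparison. Its counts were 169 and 223 in parental cells, 224 and 160 in C4K13A and 193 in C5K13A. The levels were 2.85 and 4.39 CPM, 4.47 and 3.74 CPM, and 4.55 CPM, and the groups overlapped. The log2 fold change was 0.18 ± 0.33 in C4K13A (adjusted p = 0.876), 0.34 ± 0.40 in C5K13A (adjusted p = 0.897) and 0.23 ± 0.29 over the mutant libraries (adjusted p = 0.809), all by edgeR. PRAC2 ends 4 bases from the end of HOXB13, and its counts were 0.843% to 1.30% of those of HOXB13 in the 5 libraries. The part of reads from HOXB13 in the PRAC2 counts was not tested.

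Within the PRAC pair, PRAC1 gave the smaller share of reads in both C4K13A libraries and the larger share in the other 3 libraries. PRAC1 made up 82.4% (95% Wilson interval 79.9% to 84.7%) and 67.2% (63.5% to 70.6%) of the reads of PRAC1 and PRAC2 together in the parental libraries. In C4K13A it made up 8.94% (5.98% to 13.2%) and 3.61% (1.67% to 7.66%), and in C5K13A 59.5% (55.1% to 63.9%). These intervals cover counting error only, since without molecular identifiers a read is not an independent molecule. The intervals of the C4K13A libraries lie far below those of the other 3 libraries, and the parental libraries also differ from each other beyond counting error. Per 1000 HOXB13 reads there were 39.6 and 20.01 PRAC1 reads in parental cells, 1.28 and 0.403 in C4K13A and 19.0 in C5K13A. By this ratio C5K13A lay close to the second parental library. HOXB13 was highest in that parental library, at 448 CPM against 338 to 352 in the others, which lowers its ratio. As CPM, PRAC1 was at 8.97 there and 6.69 in C5K13A.

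**Figure D2:**
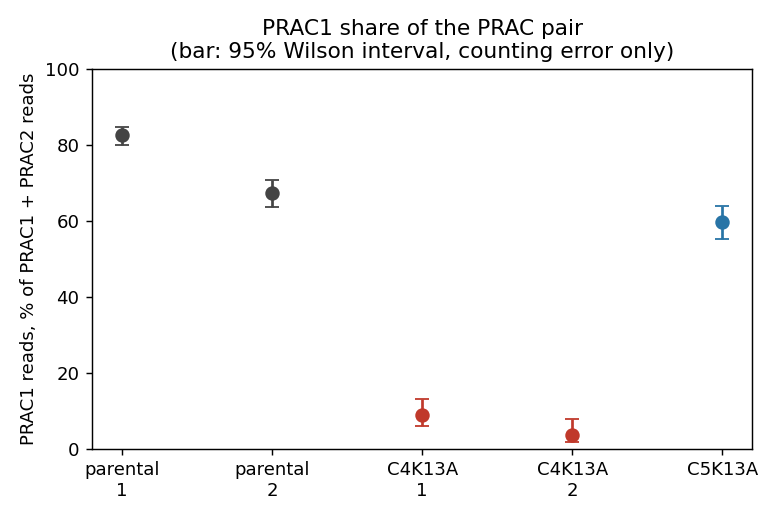
PRAC1 reads as a percentage of PRAC1 plus PRAC2 reads (linear axis from 0 to 100), 1 point per library with its 95% Wilson interval for counting error. The C4K13A libraries are at 8.94% and 3.61%; the parental libraries are at 82.4% and 67.2% and C5K13A is at 59.5%.

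TTLL6 had low counts, at 67 to 136 per library. Its level was 2.29 and 1.77 CPM in parental cells, 2.13 and 1.57 in C4K13A and 2.40 in C5K13A, and the groups overlapped. The log2 fold change was −0.13 ± 0.37 in C4K13A (adjusted p = 0.921 by edgeR), 0.25 ± 0.45 in C5K13A (adjusted p = 0.929) and 0.0016 ± 0.33 over the mutant libraries (adjusted p = 1.00). Its sign over the mutant libraries turned in 6 of 14 alternative settings. The SE leaves room for differences of over 1.5 times in either direction.

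CALCOCO2 was lower in both C4K13A libraries but did not pass the test there. Its level was 98.1 and 98.9 CPM in parental cells, 51.5 and 66.1 in C4K13A and 89.5 in C5K13A. All 3 mutant libraries lay below both parental ones, with C5K13A near them. C4K13A averaged 58.8 ± 10.3 CPM (SD, n = 2), 59.7% of the parental mean of 98.5 ± 0.566 (n = 2), and C5K13A stood at 90.9%. The log2 fold change was −0.75 ± 0.19 in C4K13A (adjusted p = 0.156 by edgeR), −0.13 ± 0.23 in C5K13A (adjusted p = 0.926) and −0.51 ± 0.23 over the mutant libraries (adjusted p = 0.458). In C4K13A it passed with 3 other settings, DESeq2 (adjusted p = 0.0404), no filter (0.0125 by edgeR) and a replicate block (0.0409 by edgeR). In these settings 3.71%, 3.6% and 4.35% of all genes were called, against 0.699% in the main test. Without the second parental library the log2 fold change was −0.74, in a fit whose spread comes from the C4K13A pair alone. C5K13A differed from C4K13A by 0.61 ± 0.23 (adjusted p = 0.728).

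**Figure D3:**
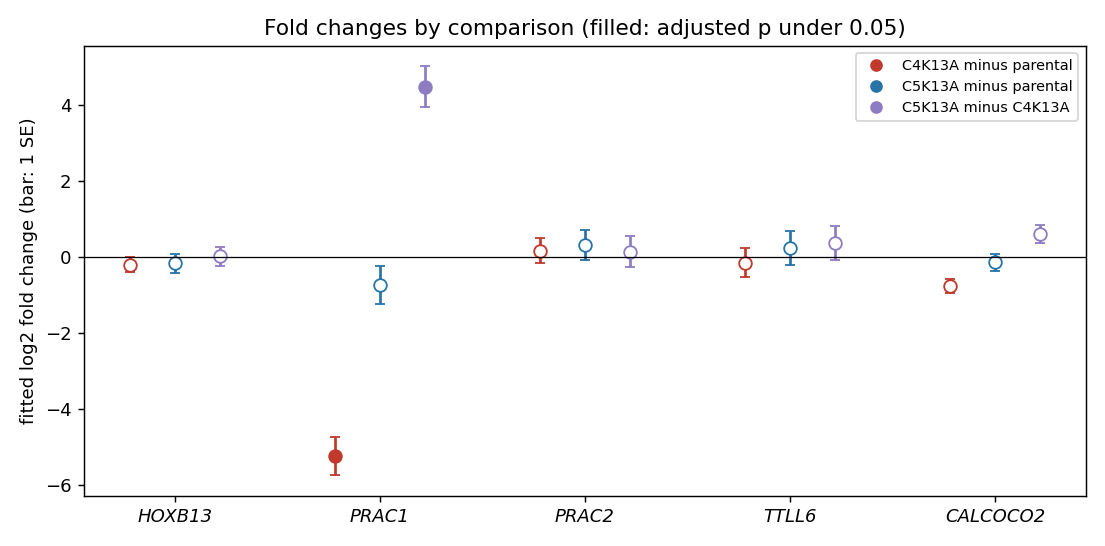
Fitted log2 fold change of each gene (y axis; bars are 1 SE) for C4K13A minus parental, C5K13A minus parental and C5K13A minus C4K13A; filled points have an adjusted p under 0.05 in edgeR. The filled points are PRAC1 in C4K13A (−5.23) and PRAC1 between the clones (4.49).

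Counted over the 5 genes, 1 (PRAC1) was called lower in C4K13A, where 0.699% of all genes tested were called in either direction and 0.602% lower. Between the clones 1 of 5 was called, again PRAC1, where 0.066% of all genes were. HOXB13, PRAC2 and TTLL6 differed between the clones by 0.03 ± 0.25, 0.15 ± 0.40 and 0.38 ± 0.45 on the log2 scale, with adjusted p-values of 0.999, 0.999 and 0.990 by edgeR. In C5K13A against parental 0 of 5 were called by edgeR, DESeq2 or limma-voom, 0 had an unadjusted p under 0.05, and 0.0484% of all genes were called. For the 3 mutant libraries together 0 of 5 were called by these 3 tools, 0 had an unadjusted p under 0.05, and 0.203% of all genes were called. PRAC1 and CALCOCO2 had all 3 mutant libraries below both parental ones, as did 14.9% of all genes tested in the 2-group fit. The same 2 genes had both C4K13A libraries below both parental ones, as did 22.9% of all genes in the 3-group fit.

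The 5 genes lie on a chromosome whose transcripts were lower on balance in C4K13A. Of 865 protein-coding genes tested on chromosome 17, 710 (82.1%) had a negative log2 fold change in C4K13A, with a median of −0.33, the lowest of 23 chromosomes; over all protein-coding genes 48.7% were negative. Chromosome 3 came next with nearly the same shift, 650 of 806 genes (80.6%) and a median of −0.28. In C5K13A 363 of the 865 were negative and the median was 0.06. Set against the other genes of the chromosome in C4K13A, PRAC1 had 6 below it (0.694%), CALCOCO2 18.4%, HOXB13 63.7%, TTLL6 70.6% and PRAC2 90.3%. The log2 fold change of PRAC1 minus the chromosome median was −4.90, and that of CALCOCO2 was −0.42. The part of this shift in the CALCOCO2 value was not tested.

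Of 39 flanking protein-coding genes with a start within 1 Mb of that of HOXB13, 30 were tested in the clone fits. In C4K13A 28 of these 30 had a negative log2 fold change, with a median of −0.41 beside −0.01 over all genes tested. SCRN2, at −888 kb, was the single flanking gene called there by edgeR, where 0.699% of all genes were called. It was at 19.0 and 12.6 CPM in parental cells, 5.15 and 5.16 in C4K13A and 11.6 in C5K13A. Its log2 fold change in C4K13A was −1.62 ± 0.26 (adjusted p = 0.0422 by edgeR). DESeq2 called 2 flanking genes and 3.71% of all genes, and limma-voom called 0 and 0.378%. In C4K13A 9 of the 30 had an unadjusted p under 0.05 by edgeR, where 12.2% of all genes did. In C5K13A 12 of the 30 were negative, the median was 0.08, and 0 were called by edgeR or DESeq2. There 1 had an unadjusted p under 0.05 (6.45% of all genes). By annotated start, the nearest expressed gene on the HOXB side was HOXB7, at −95.6 kb. It had 8.46 and 9.13 CPM in parental cells, 8.14 and 8.11 in C4K13A and 9.73 in C5K13A. Its log2 fold change was −0.12 ± 0.23 in C4K13A (adjusted p = 0.886 by edgeR). On the other side the nearest by start was ATP5MC1, a subunit gene of ATP synthase. That gene was at 74.6 and 110 CPM, then 94.3 and 74.6, then 104 (−0.13 ± 0.24, adjusted p = 0.880 by edgeR). In both genes the fold change lay within its SE of 0. HOXB9 had the next start, at −103 kb. It was at 19.4 and 15.6 CPM in parental cells, 8.38 and 9.88 in C4K13A and 21.1 in C5K13A. Both C4K13A libraries were thus below the other 3, as for PRAC1. The log2 fold change of HOXB9 was −0.94 ± 0.22 in C4K13A (adjusted p = 0.125 by edgeR). Between the clones it differed by 1.22 ± 0.26 (adjusted p = 0.276 by edgeR). HOXB9 was named after its values were seen. Of the 9 other HOXB genes, 6 were tested in the clone fits. All 6 had negative values in C4K13A (median −0.75), where 82.1% of chromosome 17 genes did, and 3 of 6 in C5K13A. HOXB8 (2 to 24 reads per library) and HOXB3 (5 to 37) were near the floor, with SEs of 1.17 and 0.84 in C4K13A. In C4K13A 0 of the 6 were called by edgeR, 2 had an unadjusted p under 0.05 (12.2% of all genes) and DESeq2 called 1 (3.71%).

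**Figure D4:**
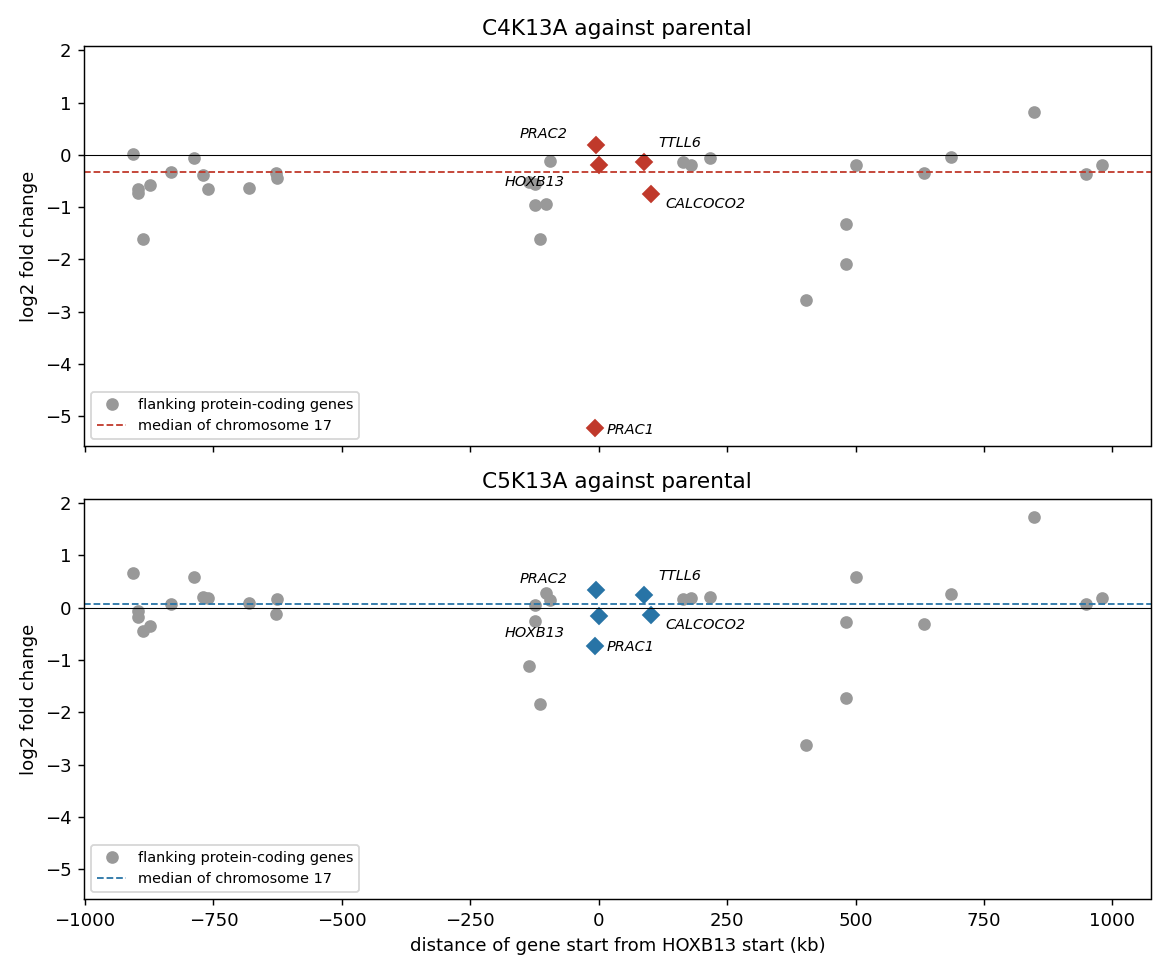
Fitted log2 fold change (y axis) of the 5 genes (coloured diamonds) and 30 flanking protein-coding genes (grey points) by the distance of their start from that of HOXB13 in kilobases, for C4K13A (upper panel) and C5K13A (lower panel) against the same parental libraries; the dashed line is the median of chromosome 17. PRAC1 at −5.23 is the lowest point in the upper panel, where 28 of the 30 grey points are below 0; 12 are in the lower panel.

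Among proteins that work with HOXB13 on DNA or chromatin, edgeR called none in any comparison. DESeq2 called 1 in each comparison with parental cells, where it called 3.71% (C4K13A), 1.25% (C5K13A) and 2.98% (mutant libraries) of all genes. This list held homeodomain cofactors such as the MEIS and PKNOX proteins, the forkhead factor FOXA1, and corepressors and coactivators, among them HDAC3, NCOR1, TBL1XR1, CREBBP and EP300; 16 of its 17 genes were tested. In C4K13A 0 of 16 were called by edgeR, with 4 at an unadjusted p under 0.05, and a median of −0.16; over all genes 12.2% had an unadjusted p under 0.05. There 3 were called with no filter (3.6% of all genes). The replicate block (4.35%) and the ribosomal RNA covariate (3.42%) each called 1. NCOR1, a corepressor, was at 137 and 167 CPM in parental cells, 89.0 and 103 in C4K13A and 153 in C5K13A, with both C4K13A libraries below the other 3 (log2 fold change −0.66 ± 0.19 in C4K13A, adjusted p = 0.211). In C5K13A and over the mutant libraries 0 of 16 were called by edgeR. There 1 and 3 had an unadjusted p under 0.05, as did 6.45% and 11.0% of all genes.

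HOXB13 has 3 paralogs in the other HOX clusters, and 0 of 3 were called by edgeR, DESeq2 or limma-voom in any comparison, with 1 at an unadjusted p under 0.05 in C4K13A and 2 in C5K13A, where 12.2% and 6.45% of all genes were. HOXA13 had 3.20 and 5.96 CPM in parental cells, 5.31 and 24.9 in C4K13A and 17.2 in C5K13A (log2 fold change 1.71 ± 0.63 in C4K13A, adjusted p = 0.322). Its C4K13A libraries differed from each other by more than the parental pair did, and overlapped the parental range. HOXA13 was called in C4K13A with no filter, the replicate block or the ribosomal RNA covariate. In these settings 3.6%, 4.35% and 3.42% of all genes were called, against 0.699% in the main test. In C5K13A it was called with no filter, where 1.54% of all genes were called, against 0.0484% in the main test. Fits with a C4K13A library left out take their spread from the parental pair alone, so their calls are not given. HOXC13 was at 8.17 and 12.3, then 11.2 and 16.9, then 13.0 CPM (0.46 ± 0.29, adjusted p = 0.586). HOXD13 was at 1.69 and 3.09, then 1.88 and 1.85, then 0.801 CPM (−0.36 ± 0.41, adjusted p = 0.785).

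CALCOCO2 was set beside 24 other receptors and partners of selective autophagy, of which 22 were tested. In C4K13A 19 of the 22 had a negative log2 fold change, with a median of −0.42, beside 51.1% negative and a median of −0.01 over all genes. Of the 22, 0 were called by edgeR, 9 had an unadjusted p under 0.05 (12.2% of all genes did), and DESeq2 called 2 (3.71% of all genes). With no filter 6 were called (3.6% of all genes). The replicate block (4.35%) and the ribosomal RNA covariate (3.42%) each called 2. In C5K13A 17 of 22 were negative with a median of −0.26 (52.8% of all genes were negative). There 0 were called by edgeR and 1 had an unadjusted p under 0.05 (6.45% of all genes). DESeq2 called 1 (1.25% of all genes), and 1 was called with no filter (1.54%). Over the mutant libraries 18 of 22 were negative with a median of −0.41 (50.6% of all genes were negative). Of these 22, 0 were called by edgeR and 9 had an unadjusted p under 0.05 (11.0% of all genes). DESeq2 called 2 (2.98% of all genes), and 6 were called with no filter (3.12%). GABARAPL1, an ATG8-family protein of the autophagosome membrane, was at 16.1 and 9.09 CPM in parental cells, 5.27 and 3.11 in C4K13A and 6.64 in C5K13A (−1.58 ± 0.37 in C4K13A, adjusted p = 0.123). BNIP3L, a receptor for mitochondria, was at 105 and 72.6, then 52.4 and 40.4, then 39.3 CPM (−0.94 ± 0.23 in C4K13A, adjusted p = 0.148; −1.17 ± 0.30 in C5K13A, adjusted p = 0.448). In both genes all mutant libraries lay below both parental ones. Of the relatives of CALCOCO2 in sequence, CALCOCO1 was at 36.1 and 13.8 CPM in parental cells, 12.5 and 13.8 in C4K13A and 14.04 in C5K13A (−0.93 ± 0.39 in C4K13A, adjusted p = 0.394), with the first parental library standing above the other 4. TAX1BP1 was at 104 and 133, then 110 and 207, then 188 CPM, with a positive log2 fold change of 0.42 ± 0.29 in C4K13A (adjusted p = 0.627).

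**Figure D5:**
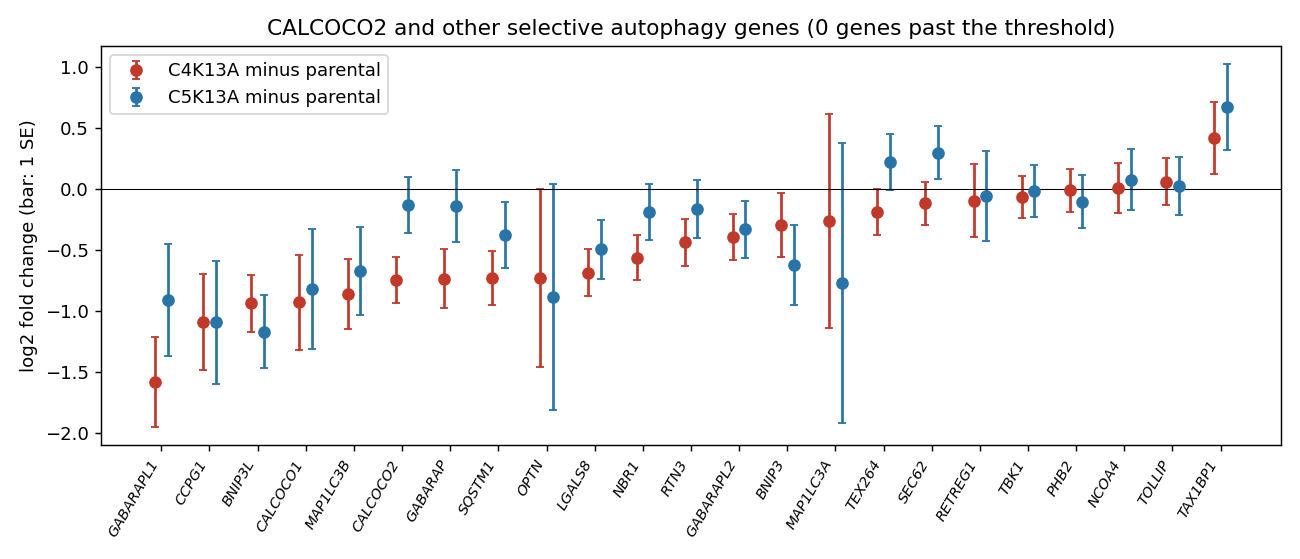
Fitted log2 fold change (y axis; bars are 1 SE) of CALCOCO2 and the 22 tested selective autophagy genes for C4K13A (red) and C5K13A (blue), each against the same parental libraries, ordered by the C4K13A value. In C4K13A 19 of the 22 other genes are below 0, from GABARAPL1 at −1.58, and TAX1BP1 is the highest at 0.42; 0 passed the threshold in edgeR.

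TTLL6 was set beside 19 other enzymes that add or remove glutamate or glycine on tubulin, of which 15 were tested in the clone fits. In C4K13A 6 were negative and 9 positive, with a median of 0.08. Of the 15, 0 were called by edgeR, 2 had an unadjusted p under 0.05 (12.2% of all genes did) and DESeq2 called 0. With no filter 1 was called, TTLL1, where 3.6% of all genes were called. TTLL1, a polyglutamylase, was at 14.6 and 7.63 CPM in parental cells, 4.87 and 6.10 in C4K13A and 7.47 in C5K13A (−1.02 ± 0.34 in C4K13A, adjusted p = 0.275). TPGS1, a subunit of the same enzyme complex, was at 11.3 and 10.3, then 6.96 and 7.52, then 10.2 CPM (−0.58 ± 0.23, adjusted p = 0.355). In C5K13A 0 of 15 were called by edgeR or DESeq2, and 0 had an unadjusted p under 0.05 (6.45% of all genes did).

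The genes whose profiles over the 5 libraries came closest to each of the 5 were found among 13834 protein-coding genes. The measure was the root mean square difference in log2 CPM after each gene's mean was removed, and is a description. Nearest to PRAC1 was SLCO3A1, an organic anion transporter gene, at 6.71 and 5.94 CPM in parental cells, 0.419 and 0.0467 in C4K13A and 1.53 in C5K13A, with a difference of 0.671. C1orf158 (0.731) and FUT3, a fucosyltransferase gene (0.753), followed. Nearest to CALCOCO2 was GABARAP, also on chromosome 17, at 10.8 and 10.6, then 5.67 and 7.15, then 9.61 CPM, with a difference of 0.0175. H3F3C (0.0406), whose reads may be shared with near-identical histone genes, and SCPEP1 on chromosome 17 (0.0433) were next. Nearest to HOXB13 were FAM86C1 (0.0336), ZNF205 (0.0364), SLC25A3 (0.0406), TSEN15 (0.0423) and CARD19 (0.0442), each highest in the second parental library; FAM86C1 has near-identical copies, so its counts are uncertain. Nearest to PRAC2 were ATAD5 on chromosome 17 (0.0227), DESI1 (0.0413) and MRPS12 (0.0436), and nearest to TTLL6 were SPATA17 (0.0594), MINOS1 (0.0596) and CPAMD8 (0.0680). None of the 5 genes was among the nearest of another. By this measure CALCOCO2 was the 1095th nearest gene to PRAC1 and PRAC2 the 8388th.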

How the data were processed

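RNA of 5 C4-2B libraries was measured by RNA sequencing after ribosomal depletion. Per the labels' protocols, total RNA was column-purified, treated with DNase I and sequenced on an Illumina HiSeq. The deposited values are whole-number read counts per gene, not normalized. The submitters' processing notes name STAR 2.5, featureCounts 1.4.6-p5 and bcl2fastq. The build, annotation and strand setting of the counting are not given here in any label or header. Of 58812 Ensembl IDs, 55297 were found in GENCODE v29 (GRCh38), which gave symbols and positions and may differ from the authors' annotation. Groups and replicate numbers come from the sample titles. Libraries were compared in pairs for duplicates, and the chi-square per gene was at least 45.1, so none was found. The parental pair had the largest value, at 145 (r = 0.972 in log2 CPM), beside 45.8 (r = 0.980) for the C4K13A pair. The second parental library and C5K13A were at 47.0 (r = 0.975).

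The tests used edgeR 4.0.16 in R 4.3.3, with the filterByExpr filter, TMM scaling and the quasi-likelihood fit and test (glmQLFit, glmQLFTest). P-values were adjusted by Benjamini-Hochberg over all genes tested, and "called" means an adjusted p under 0.05. A 2-group fit (3 residual degrees of freedom) compared all mutant libraries with parental ones. A 3-group fit (2 residual degrees of freedom) compared the clones with parental cells and with each other; there the single library of C5K13A is taken to vary as the other groups do. SE is the size of the log2 fold change divided by the root of F. The scripts were tested on simulated data. Alternatives included upper-quartile and RLE factors, no filter, a filter at 5 CPM, DESeq2 1.42.0, limma-voom (limma 3.58.1), leaving out genes of ribosomal, small and mitochondrial RNA, a 3-group fit, summed C4K13A libraries, the parental and C4K13A libraries alone, a replicate block and each library left out. A covariate for residual ribosomal RNA (split at 200 CPM of mitochondrial ribosomal RNA) was added after the data were seen.

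The 5 genes and the gene lists were chosen with earlier results of these data known. Named genes are the 5 genes, flanking genes called in any comparison, the nearest expressed gene on either side, up to 5 called list members or else 2 with the smallest adjusted p, and the 5 (HOXB13) or 3 genes with the most similar profile (log2 CPM, prior count 2). Some genes that this rule or the lists take are not reported here. HOXB9, CALCOCO1, TAX1BP1, HOXC13 and HOXD13 were named outside this rule, after their values were seen.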

Additional observations from a re-analysis of the deposited data

Results flagged for a closer look

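The PRAC1 effect differed between the clones. Its log2 fold change against parental cells was −5.23 ± 0.51 (SE) in C4K13A and −0.73 ± 0.50 in C5K13A, and the difference of 4.49 ± 0.53 had an adjusted p of 0.0461 in edgeR's test of C5K13A against C4K13A over 22743 genes. The C5K13A side is 1 library. The difference ran from 3.92 to 5.56 when each other library was left out, the highest value being without the first C4K13A library. Without either C4K13A library both sides are single libraries and the spread comes from the parental pair alone, so those values say little about stability. Upper-quartile factors, the filter at 5 CPM and limma-voom ended the call.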

How the results depend on the processing

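The PRAC1 fall in C4K13A kept its direction in all 15 alternatives. Of these, leaving out C5K13A and taking the parental and C4K13A libraries alone are the same fit. It kept its call wherever both parental and both C4K13A libraries were kept. The largest adjusted p there was 0.0437 (edgeR, filter at 5 CPM). With 1 library left out it ran from −6.29 to −4.66. Both ends come from fits with 1 C4K13A library, where the spread comes from the parental pair alone, so they say little about stability. PRAC1 over the mutant libraries passed by edgeR with no filter (−2.21, adjusted p = 2.04e-10). There 3.12% of all genes were called, against 0.203% in the main test. It also passed in the 3-group fit (−2.98, 0.0283), where 0.462% of all genes were called. That fit leaves the difference between the clones out of its spread. In both settings 1 of the 5 genes was called. Leaving out C5K13A gave −5.23 (0.0136 by edgeR), where 0.639% of all genes were called. That fit holds only C4K13A and parental libraries, so it is the C4K13A comparison. With 1 library left out the range was −5.23 to −1.65. Between the clones PRAC1 lost its call with upper-quartile factors (4.47), the 5 CPM filter (4.48) and limma-voom (4.64), with 0 of the 5 genes then called. The cause was not tested.

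CALCOCO2 in C4K13A passed with no filter (−0.76) and with DESeq2 (−0.73), and 2 genes were then called in each. With 1 library left out its log2 fold change ran from −0.93 to −0.57. Fits without a parental or a C4K13A library leave 1 library in a group, so their calls are not given. The replicate block, fitted on the 4 numbered libraries, gave −0.76 for CALCOCO2 (adjusted p = 0.0409), −5.32 for PRAC1, 2 called genes and 2 called flanking genes. Same-numbered libraries deviated together only weakly (r = 0.196 across 20649 genes, 2 pairs), and the labels do not say that a number marks a shared culture.

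With 1 library left out, HOXB13 ran from −0.37 to 0.044 over the mutant libraries, −0.38 to 0.033 in C4K13A and −0.35 to 0.064 in C5K13A; PRAC2 from −0.045 to 0.58 over the mutant libraries and −0.10 to 0.53 in C4K13A; and TTLL6 from −0.17 to 0.20 and −0.37 to 0.076. TTLL6 over the mutant libraries also turned sign with upper-quartile factors (−0.041), no filter (−0.0027) and limma-voom (−0.013). The 5 CPM filter left PRAC2 and TTLL6 with no value.

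Flanking genes called over the mutant libraries were 2 with no filter and 1 with DESeq2, where 3.12% and 2.98% of all genes were called. In C4K13A they were 4 with no filter (3.6% of all genes) and 2 with DESeq2 (3.71%) or the ribosomal RNA covariate (3.42%). They were 0 with the 5 CPM filter, limma-voom, the parental and C4K13A libraries alone or a 0.5 Mb window. Between the clones they were 2 with no filter (1.13% of all genes) and 1 with DESeq2 (0.976%). With the 0.5 Mb window the flanking medians were −0.37 over the mutant libraries, −0.75 in C4K13A, −0.10 in C5K13A and 0.29 between the clones. Per kilobase of the longest transcript, CALCOCO2 averaged 21.9 CPM over the 5 libraries, against 9.70 per kilobase of merged exons. TTLL6 and PRAC2 had low counts, as did PRAC1 in C4K13A, where 22 and 6 reads set the value.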

Other observations

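Between HOXB9 and ATP5MC1 the annotation holds 14 non-coding genes that are in the count table, chosen after their values were seen; 4 had 0 counts in all 5 libraries, 4 were tested, and 0 were called by edgeR in any of the 4 comparisons. The most abundant was the lincRNA AC091179.1, which lies between HOXB13 and TTLL6 on the plus strand (chr17:48733091-48733888). It was at 9.99 and 6.24 CPM in parental cells, 7.22 and 7.48 in C4K13A and 8.34 in C5K13A, so the mutant libraries lay between the parental ones (log2 fold change −0.14 ± 0.29 in C4K13A, adjusted p = 0.887). AC103702.2, a lincRNA on the minus strand between HOXB9 and PRAC1, had the largest fold against parental cells of those tested, with all mutant libraries above both parental ones. It was at 0.067 and 0.334 CPM in parental cells, 0.479 and 1.21 in C4K13A and 0.825 in C5K13A, from 132 reads in all (log2 fold change 2.08 ± 0.83 in C4K13A, adjusted p = 0.365, and 2.05 ± 0.95 in C5K13A, adjusted p = 0.783). LINC02086, which lies between HOXB9 and PRAC1, had 0 reads in either parental library, 2 and 5 in C4K13A and 2 in C5K13A, too few for a test.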
